A study of Mus musculus with 14 samples.

Results

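A set of 10 genes that mark fibroblasts and the progenitors of fat cells was followed in the heart and in the fat around the gonads (gonadal white adipose tissue, gWAT) of mice with and without Fhl2. They were chosen by name as Pdgfra, Pi16, Dpp4, Cd34, Ly6a, Gsn, Dcn, Mfap5, F3 and Col15a1, and each symbol stood on 1 of the 33459 gene rows of the deposited table, so 10 of 10 were found. Every group was C57BL/6, 21 weeks of age and on a high fat diet for 8 weeks, so that a lean diet is not part of the design. Wild-type (WT) and FHL2-/- (knockout) mice gave 4 heart libraries per genotype, numbered 1 to 4, and 3 gWAT libraries per genotype, numbered 1, 3 and 4. Fhl2 encodes a protein of LIM domains that binds transcription factors and proteins of the sarcomere, and the labels give neither the part of the gene removed nor the sex of the mice. Whether every library is a different mouse is not stated, and p-values here weigh a difference against the spread among these libraries, part of which may be technical.

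Fat and heart both hold a net of fibroblast-like cells that build the matrix. In fat, some of them can turn into adipocytes. In studies of single cells from fat, Pdgfra marks these stromal cells broadly, Pi16 and Dpp4 mark a little-committed population in the sheaths around vessels and lobules, and F3 and Col15a1 mark populations further along or with other roles. Cd34 and Ly6a are shared with endothelial cells, Dpp4 with T cells and surface epithelia, and Gsn is transcribed in many cell types. In bulk tissue, fewer cells of a type and less RNA per cell cannot be told apart.

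The promoter sequences of 3 members are shown because the values of these genes set them apart below: Dpp4 and Pi16, markers of the same population whose fold changes lay apart in gWAT, and F3, whose fold change was near 0 in both tissues. Each is the 250 bases before a RefSeq transcription start on GRCm38.p6, printed from 5′ to 3′ on the strand of the gene. The windows of Dpp4 and F3 border the start of the gene in GENCODE M21. That of Pi16 lies inside the GENCODE span of the gene, which starts at chr17:29317680. Capitals mark matches on either strand to the TATA box (TATAAA), the CCAAT box (CCAAT), the GC box (GGGCGG) or the sequence of AP-1 factors (TGANTCA).

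Dpp4, chr2:62412232-62412481, minus strand: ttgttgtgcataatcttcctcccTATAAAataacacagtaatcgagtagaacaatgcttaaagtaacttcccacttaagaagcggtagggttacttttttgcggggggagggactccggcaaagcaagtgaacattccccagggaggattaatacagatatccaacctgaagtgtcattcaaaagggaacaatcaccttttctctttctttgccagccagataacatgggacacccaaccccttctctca
Pi16, chr17:29318632-29318881, plus strand: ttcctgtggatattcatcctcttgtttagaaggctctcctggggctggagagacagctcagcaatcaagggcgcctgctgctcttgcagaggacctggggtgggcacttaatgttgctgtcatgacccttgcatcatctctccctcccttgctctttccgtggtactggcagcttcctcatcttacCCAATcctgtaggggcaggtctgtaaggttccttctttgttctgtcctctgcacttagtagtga
F3, chr3:121723287-121723536, plus strand: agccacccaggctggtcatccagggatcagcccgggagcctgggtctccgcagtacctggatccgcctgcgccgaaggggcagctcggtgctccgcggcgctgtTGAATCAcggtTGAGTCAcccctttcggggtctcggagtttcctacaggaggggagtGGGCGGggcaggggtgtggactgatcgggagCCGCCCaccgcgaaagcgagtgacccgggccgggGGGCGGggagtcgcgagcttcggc

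The Dpp4 window held 1 match, to TATAAA, which 12.4% of the 32851 promoter windows hold. The Pi16 window held 1 match to CCAAT, present in 33.8% of windows. The F3 window held TGAATCA and TGAGTCA, both matches to TGANTCA, which 6.75% of windows hold, and 3 matches to GGGCGG, which 32.7% hold. TGANTCA, with any base at N, is its own reverse complement, so each place is counted once, no match overlaps another, and a match describes the letters, not a bound site.

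On GRCm38 with GENCODE M21, Pdgfra spans chr5:75152292-75198215, Pi16 chr17:29317680-29330593, Cd34 chr1:194938819-194961279, Gsn chr2:35256380-35307892, Dcn chr10:97479609-97518143, Mfap5 chr6:122505845-122529290, F3 chr3:121723537-121735048 and Col15a1 chr4:47208161-47313167 on the plus strand. Dpp4 spans chr2:62330073-62412231 and Ly6a chr15:74994877-74998031 on the minus strand. All 10 are protein-coding. Pdgfra, Pi16, Dpp4, Cd34 and Col15a1 share part of their span with an annotated antisense gene and Gsn with another gene on its own strand, and whether reads were counted by strand is not given in the sources used here, so reads of those partners cannot be told apart from theirs.

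Library totals were 10835092 to 13272412 counts in heart and 15105019 to 16040188 in gWAT. Levels are counts per 1000000 (CPM) on 1 scale for all 14 libraries, and fold changes are log2 values from edgeR. Fhl2 was at 1205 to 1632 CPM in WT hearts against 33.5 to 44.3 in knockout hearts, and at 3.61 to 4.99 against 0.208 to 0.376 CPM in gWAT. Heart libraries held 43522 to 52104 CPM of 8 summed cardiomyocyte markers and gWAT libraries 18.2 to 25.3. Of 10 fibroblast markers, among them Pdgfra and Dcn, none was at 0 in any group, and their sum was 1597 to 2064 CPM in WT and 1577 to 2033 CPM in knockout heart, and 5083 to 6964 CPM in WT and 4134 to 5382 CPM in knockout gWAT, where 4 of the 10 had positive and 6 negative fold changes. The labelled cells thus left RNA of their markers in both tissues. The heart libraries numbered 1 and 2 stood apart from 3 and 4 in their markers of the mesothelium, the layer that covers organs and fat depots, as described with Dpp4.

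Levels per kilobase of exon (FPKM, computed from CPM and the union of annotated exons) ranked the members in WT gWAT. Gsn, gelsolin, which severs actin filaments, led at 1267 ± 124 FPKM (SD, n = 3). Dcn, decorin, a small proteoglycan that binds collagen fibrils, followed at 139 ± 9.12 and overlapped Col15a1, a collagen of basement membrane zones, at 132 ± 30.0. Next in order were Ly6a (Sca-1, a surface antigen of progenitor and endothelial cells) at 71.7 ± 13.8, Mfap5 (a microfibril glycoprotein) at 24.3 ± 2.70, Cd34 (a sialomucin of progenitors and endothelium) at 18.3 ± 1.38 and F3 (tissue factor, which starts coagulation) at 13.8 ± 1.81 FPKM, with no overlap between these neighbours. Pdgfra (a receptor of platelet-derived growth factors) at 7.30 ± 1.73, Pi16 (a secreted peptidase inhibitor) at 6.83 ± 0.326 and Dpp4 (a dipeptidyl peptidase of the cell surface) at 6.23 ± 2.24 FPKM overlapped each other. In WT heart Gsn was again highest, at 521 ± 47.8 FPKM (n = 4), and Dpp4 lowest, at 3.78 ± 1.80. Pi16, Mfap5, Pdgfra and F3, at 13.4 to 7.85 FPKM, each overlapped the next in that order.

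**Figure D1:**
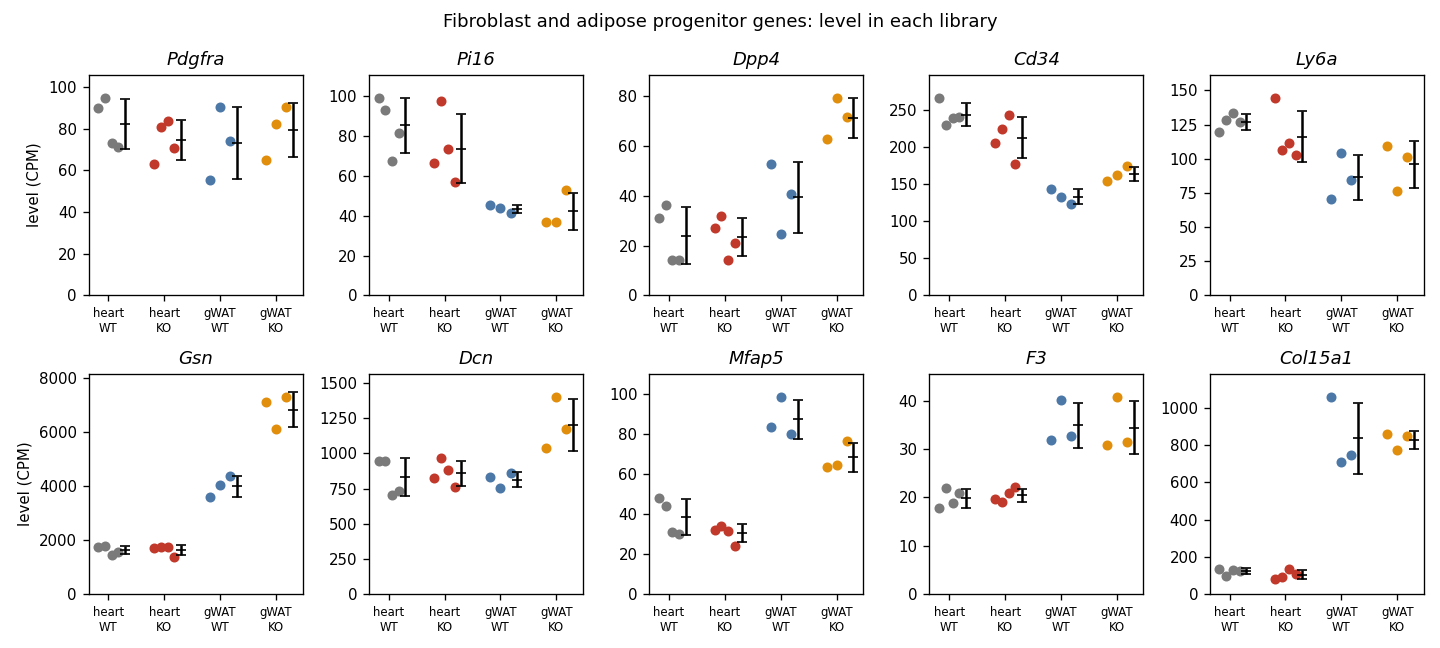
Level in CPM (y axis, from 0) of each of the 10 genes in each library (points) of the 4 groups, with the mean and SD as a black bar beside the points. Gsn, Dcn, Dpp4 and Cd34 were higher in each of the 3 knockout gWAT libraries than in each WT one, and heart groups overlapped for every member.

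In knockout gWAT, Gsn, Dpp4 and Dcn had the largest positive fold changes of the 10 genes and Mfap5 the largest negative one, but 0 of 10 passed an adjusted p of 0.05 in edgeR, where 5.49% of all 15200 tested genes passed. At an unadjusted p under 0.05 there were 5 of 10 (Dpp4, Cd34, Gsn, Dcn and Mfap5), against 23.1% of all genes. All 10 passed the filter on low counts. The groups did not overlap for 5 of 10, against 27.6% of all tested genes: 4 were higher in the knockout (12.4% of all genes) and 1 lower (15.2%). The median log2 fold change of the 10 was 0.13, beside 9.32e-05 for all genes tested.

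Gsn stood at 3589, 4046 and 4368 CPM in the WT gWAT libraries numbered 1, 3 and 4, and at 7118, 6117 and 7303 CPM in the knockout ones. Every knockout library thus lay well above every WT library. The log2 fold change was 0.77 ± 0.19 (SE), with a 95% interval of 0.34 to 1.21 and an adjusted p of 0.0544 by edgeR. Gsn rests on 233365 reads in WT and 390474 in knockout libraries, so counting error is small beside the spread between libraries. It passed at 3.51e-06 by DESeq2, at 0.00284 in 1 edgeR fit of all 14 libraries, at 0.00923 without the filter and at 0.0110 without WT library 1, and the largest adjusted p over the alternatives was 0.19. The sum of 10 adipocyte markers was 10026 to 17063 CPM in WT and 17027 to 18148 CPM in knockout gWAT, and these ranges overlapped. Of the 10, 9 had positive fold changes and none was at 0. WT library 1 held 17063 CPM of these markers, within the range of the knockout libraries, and the lowest Gsn level. The part of adipocyte RNA in the Gsn difference was not tested.

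Dcn was at 831, 755 and 857 CPM in WT and at 1036, 1398 and 1174 CPM in knockout gWAT, without overlap. Its log2 fold change was 0.56 ± 0.15, with an interval of 0.21 to 0.92 (edgeR adjusted p = 0.0724). It passed at 0.00319 by DESeq2, at 0.0254 in the fit of all 14 libraries, at 0.0373 without the filter and at 0.0330 without WT library 1, and its largest adjusted p over the alternatives was 0.24. Mfap5, which encodes a microfibril glycoprotein of the matrix, went the other way. It was at 83.6, 98.3 and 80.0 CPM in WT and 63.5, 64.7 and 76.7 CPM in knockout libraries. The groups did not overlap, by 80.0 against 76.7 CPM at the nearest, and the log2 fold change was −0.36 ± 0.13 (adjusted p = 0.14). Col15a1 was at 1057, 712 and 745 CPM in WT and at 859.7, 773 and 851 CPM in knockout gWAT. The WT range enclosed the knockout libraries, and the log2 fold change was −0.01 with an interval of −0.40 to 0.37 (adjusted p = 0.98).

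Dpp4 and Pi16, markers of the same little-committed progenitors, had different fold changes, 0.86 and −0.04. Dpp4 was at 52.9, 24.7 and 40.5 CPM in WT and at 62.7, 79.0 and 71.7 CPM in knockout gWAT, so that each knockout library lay above each WT library. The log2 fold change was 0.86 ± 0.24, with an interval of 0.32 to 1.40 (edgeR adjusted p = 0.0719). Dpp4 passed at 0.00953 by DESeq2, at 0.00940 without the filter and at 0.00591 without WT library 1, where the fold change was 1.11, and its largest adjusted p over the alternatives was 0.22. Pi16 stood at 45.3, 43.9 and 41.2 CPM in WT and at 37.0, 36.9 and 53.0 CPM in knockout gWAT, with a log2 fold change of −0.04 and an interval of −0.39 to 0.31 (adjusted p = 0.91). Dpp4 reads per Pi16 read were 1.17, 0.563 and 0.982 in WT and 1.69, 2.14 and 1.35 in knockout gWAT. That ratio was higher in every knockout library, and was not given a test of its own.

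The surface markers of the wider stroma differed little. Cd34 was at 143, 134 and 123 CPM in WT and at 155, 162 and 174 CPM in knockout gWAT, which did not overlap, with a log2 fold change of 0.30 ± 0.10 (adjusted p = 0.13). Ly6a, at 70.6, 104 and 84.7 against 109.6, 76.3 and 102 CPM, overlapped (0.14, interval −0.28 to 0.57, adjusted p = 0.68). Pdgfra, at 55.4, 90.1 and 73.8 against 65.0, 82.1 and 90.5 CPM, also overlapped (0.11, interval −0.35 to 0.57, adjusted p = 0.79). Both intervals reach 0.57, so a difference of that size is not excluded by these libraries. F3 was at 31.8, 40.1 and 32.7 CPM in WT and at 30.9, 40.7 and 31.5 CPM in knockout libraries, with a log2 fold change of −0.02 and an interval of −0.37 to 0.33 (adjusted p = 0.94). A list of 10 markers of endothelial cells, which share Cd34 and Ly6a, summed to 518 to 665 CPM in WT and 412 to 699 CPM in knockout gWAT, with 5 of 10 higher, 0 called and none at 0.

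**Figure D2:**
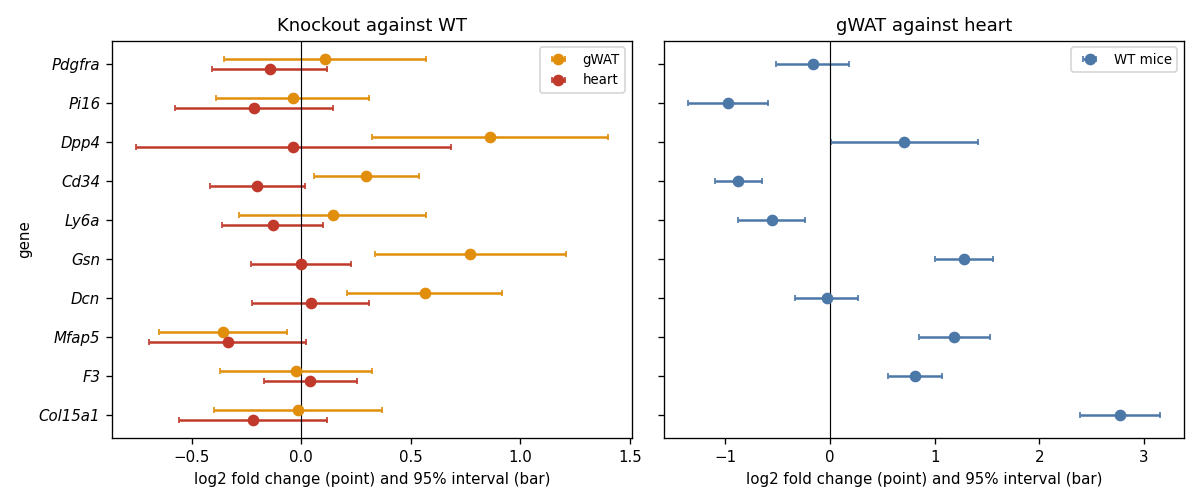
Log2 fold change (x axis, point) with its 95% interval (bar) of each gene (y axis): knockout against WT in gWAT and heart on the left, gWAT against heart in WT mice on the right. In gWAT the intervals of Dpp4, Cd34, Gsn and Dcn lie above 0 and that of Mfap5 below 0 before adjustment for all genes, and every heart interval spans 0.

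Dpp4 and the markers of the mesothelium were both higher in knockout gWAT. The summed level of 8 mesothelial markers (Msln, Upk3b, Krt19, Krt8, Lrrn4, Wt1, Upk1b and Gpm6a) was 263, 113 and 214 CPM in WT gWAT libraries 1, 3 and 4 and 433, 552 and 327 CPM in knockout ones. All 8 had positive fold changes in knockout gWAT, with a median of 1.14, 3 were called (Msln, Krt19 and Krt8), and none was at 0 in any group. WT library 3 had the lowest value of both Dpp4 and these markers, and knockout library 3 the highest of both. Knockout libraries 1 and 4 went in opposite order, with 433 and 327 CPM of markers but 62.7 and 71.7 CPM of Dpp4. A list of 8 markers of T cells, which also transcribe Dpp4, summed to 12.9 to 19.3 CPM in WT and 12.7 to 24.4 CPM in knockout gWAT, with 4 of 8 higher, 0 called and none at 0. The part of mesothelial RNA in the Dpp4 difference was not tested.

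In heart the mesothelial sum was 298, 376, 68.8 and 57.7 CPM in WT libraries 1 to 4, with 30.9, 36.3, 14.1 and 14.4 CPM of Dpp4. In knockout hearts it was 254, 309, 71.2 and 141 CPM, with 26.9, 31.8, 14.4 and 21.0 CPM of Dpp4. Hearts numbered 1 and 2 were high in both quantities in either genotype, and those numbered 3 and 4 low. The hearts form these separate sets of 4, too few for a correlation of their own. A Pearson r with the sum over all 8 hearts mixes the sets, so it is given as description, without a p-value. It was 0.997 for Dpp4, 0.804 for Dcn, 0.702 for Mfap5, 0.658 for Gsn, 0.638 for Pi16 and 0.517 for Pdgfra. For Ly6a it was 0.041, for Cd34 0.009, for F3 −0.145 and for Col15a1 −0.554. Dpp4 thus had the highest value of the 10 members. Dcn, Mfap5, Gsn, Pi16 and Pdgfra had lower positive values, of 0.517 to 0.804. The share of all genes with such values was not computed. Among numbers 1 and 2 both quantities put the libraries in the same order. Among numbers 3 and 4 they did not, since WT heart 4 had the lowest mesothelial sum and WT heart 3 the lowest Dpp4, though knockout heart 4 was highest in both. This pattern was looked for after the values had been seen, and the points share the scaling of their library.

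**Figure D3:**
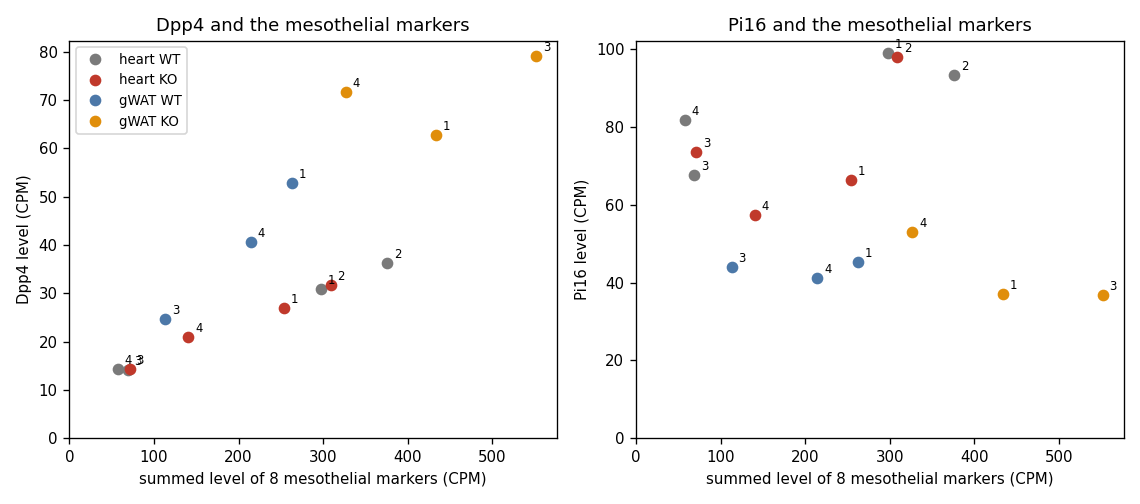
Level in CPM of Dpp4 (left, y axis) and Pi16 (right, y axis) against the summed level of 8 mesothelial markers in CPM (x axis) in the 14 libraries, coloured by group and labelled with the library number. The hearts numbered 1 and 2 (254 to 376 CPM of markers) have 26.9 to 36.3 CPM of Dpp4 and those numbered 3 and 4 (57.7 to 141 CPM) 14.1 to 21.0 CPM, while Pi16 of the same sets overlaps.

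In knockout heart 0 of 10 members passed an adjusted p of 0.05 and 0 of 10 an unadjusted p of 0.05, where 0.00706% (Fhl2 alone) and 3.20% of 14159 tested genes did. Groups overlapped for all 10, and did not overlap for 2.38% of all tested genes. In heart 8 members had negative fold changes and 2 positive ones, with a median of −0.14 beside −0.00 for all genes. By DESeq2 and limma-voom 0 members passed as well.

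The member values nearest to the threshold in heart were those of Mfap5 and Cd34. Mfap5 was at 47.8, 44.2, 31.2 and 30.1 CPM in WT and at 32.0, 34.0, 31.7 and 24.1 CPM in knockout hearts, with a log2 fold change of −0.34 ± 0.16 (interval −0.70 to 0.02, adjusted p = 0.9997). The difference lay in WT hearts 1 and 2, since WT hearts 3 and 4 were within the knockout range. Cd34 was at 266, 231, 239 and 242 CPM in WT and at 206, 224, 244 and 178 CPM in knockout hearts (−0.20 ± 0.10, adjusted p = 0.9997). Gsn was at 1762, 1783, 1472 and 1568 CPM in WT and at 1731, 1745, 1734 and 1383 CPM in knockout hearts, a log2 fold change of −0.00 with an interval of −0.23 to 0.23.

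Dcn was as level, at 948, 945, 705 and 732 CPM in WT and 826, 970.1, 881 and 759 CPM in knockout hearts (0.04, interval −0.22 to 0.31). For Dpp4, given with the mesothelial markers, the interval was wide, at −0.76 to 0.69. Pi16 was at 99.0, 93.3, 67.6 and 81.7 CPM in WT and 66.4, 97.9, 73.5 and 57.2 CPM in knockout hearts (−0.22, interval −0.58 to 0.14). Pdgfra, Ly6a, F3 and Col15a1 had log2 fold changes between −0.22 (Col15a1) and 0.04 (F3), with adjusted p = 0.9997 for each. Across the heart libraries, 6 members in WT (Pdgfra, Pi16, Dpp4, Gsn, Dcn and Mfap5) were higher in both libraries numbered 1 and 2 than in both numbered 3 and 4. In knockout hearts this held for Dpp4 and Mfap5, and the reverse for F3 and Col15a1. The share of all genes with such a split was not computed, so these counts are not read as a trait of the members. Over the whole table, chi-square per degree of freedom was 5.23 between WT hearts 1 and 2 and 3.53 between 3 and 4. Across these sets of WT hearts it was 16.7 to 21.9. Within numbers 1 and 2 the log2 fold change of Pdgfra was −0.36 and within 3 and 4 it was 0.10, without a call in either, and 0 members were called within either set.

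The difference between the genotype effects of the tissues was tested by its own contrast in all 14 libraries. It treats the libraries as separate, and whether equal numbers in heart and gWAT are the same mouse is not stated. By edgeR 0 of 10 members passed an adjusted p of 0.05, against 1.15% of 16014 genes. Gsn was nearest. Its log2 fold change was 0.77 ± 0.18 larger in gWAT than in heart, with an interval of 0.38 to 1.17 (edgeR adjusted p = 0.0532). The difference for Gsn passed by DESeq2 (0.000143), without the filter (0.0215) and without WT gWAT library 1 (0.0239), and its largest adjusted p over the alternatives was 0.11. For Cd34 the difference was 0.49 ± 0.15 (adjusted p = 0.11), and it passed by DESeq2 (0.0265) and without WT gWAT library 1 (0.0377), with 0.28 as the largest adjusted p over the alternatives. Dcn (0.52 ± 0.20, adjusted p = 0.22) and Dpp4 (0.89 ± 0.47, adjusted p = 0.40) were not shown to differ between the tissues. For Mfap5, whose fold changes were −0.36 in gWAT and −0.34 in heart, the difference was −0.02 with an interval of −0.51 to 0.46 (adjusted p = 0.98).

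Between the tissues themselves the members split. In WT mice 7 of 10 passed an adjusted p of 0.05 between gWAT and heart, beside 70.5% of 16014 tested genes: 4 were higher in gWAT (36.6% of all genes were) and 3 lower (33.9%). Col15a1 differed most, at 123 ± 16.7 CPM in heart (n = 4) and 838 ± 190.5 CPM in gWAT (n = 3), a log2 fold change of 2.77 ± 0.18 (adjusted p = 1.67e-09). Gsn (1.28 ± 0.13, adjusted p = 3.07e-07), Mfap5 (1.19 ± 0.16, adjusted p = 7.16e-06) and F3 (0.82 ± 0.12, adjusted p = 2.06e-05) were also higher in gWAT, and the libraries of these 4 lay above every WT heart (35.6% of all genes do). The other 3 lay below every WT heart (33.3%), so that 7 did not overlap (68.9%). The 3 lower in gWAT were Pi16, from 85.4 ± 13.9 CPM in heart to 43.5 ± 2.08 CPM (−0.97 ± 0.18, adjusted p = 0.000174), Cd34 (−0.87 ± 0.11, adjusted p = 2.76e-06) and Ly6a (−0.56 ± 0.15, adjusted p = 0.00384).

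The 10 endothelial markers summed to 1589 to 1739 CPM in WT heart and 518 to 665 CPM in WT gWAT, with 9 of 10 lower in gWAT, all 9 called, and none at 0. Their part in the Cd34 and Ly6a differences was not tested. Pdgfra did not pass (−0.17, interval −0.52 to 0.19, adjusted p = 0.38), nor did Dcn (−0.03, interval −0.33 to 0.26, adjusted p = 0.85). Dpp4 was close to the threshold (0.71 ± 0.33, adjusted p = 0.0662) and its heart levels spanned 14.1 to 36.3 CPM. It passed by DESeq2 (0.0482), without the filter (0.00816), with the replicate block (0.00289) and without WT heart 1 (0.0472), WT heart 2 (0.0179) or WT gWAT library 3 (0.0196), and its largest adjusted p over the alternatives was 0.28. In knockout mice, Dpp4 and Dcn in gWAT stood above every knockout heart (mean CPM ratios of 3.03 and 1.40). In WT mice their libraries overlapped between the tissues (1.65 and 0.978). As in WT mice, Gsn, Mfap5, F3 and Col15a1 were above and Pi16 and Cd34 below every knockout heart, while Pdgfra overlapped. Ly6a, below in WT mice, overlapped in knockout mice. The share of all genes was not computed for knockout mice. By the edgeR contrast the genotype effects of Dpp4 and Dcn were not shown to differ between tissues (adjusted p = 0.40 and 0.22).

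Other genes of these cells, in 6 related lists, were read beside the members. In knockout gWAT 8 of their genes passed by edgeR. All 8 kept their sign under every alternative and passed by DESeq2 and without WT library 1, but by limma-voom 3 passed (Smpd3, Ltbp2 and Podn), in the fit of all 14 libraries 3 others (Apoe, Mfap2 and Ltbp4), and with RLE scaling 7, without Apoe. Leaving out WT library 3 kept 2 (Smpd3 and Ltbp2). The calls were 0 of 8 with the replicate block, and 0 without WT library 4 or any one of the knockout libraries, where no gene of the whole table passed. Of all tested genes 2.01% rose and 3.48% fell. The list of activated fibroblasts, the contractile and matrix-laying state, had the lowest median log2 fold change (−0.79, beside 9.32e-05 for all genes): 2 of 12 fell (Timp1 and Ltbp2), 0 rose and 10 had negative values. Timp1, an inhibitor of metalloproteinases, fell from 14.1 ± 4.82 to 4.30 ± 1.60 CPM (−1.72 ± 0.34, adjusted p = 0.0313). Ltbp2, a protein of microfibrils, fell from 34.0 ± 4.30 to 19.8 ± 0.280 CPM (−0.78 ± 0.11, adjusted p = 0.0216). Tnc, tenascin C (−0.96, adjusted p = 0.0569), and Cthrc1 (−1.53, adjusted p = 0.0612, at 1.02 CPM in WT) did not pass.

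In the same libraries 10 macrophage markers, of which 9 had negative fold changes, 5 were called lower and none was at 0, summed to 2089 to 5682 CPM in WT and 1625 to 1856 CPM in knockout gWAT. WT library 1, at 2089 CPM, was nearest to the knockout libraries. The part of macrophage RNA in the values of activated fibroblast genes was not tested.

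General fibroblast genes had a median of −0.28 in knockout gWAT, where edgeR called 0 of 15, although 7 had an unadjusted p under 0.05 and 11 were negative. Col1a1, which encodes the main fibrillar collagen, averaged 845 ± 248 CPM in the 3 WT libraries and 414 ± 93.7 CPM in the 3 knockout ones (−1.03 ± 0.25, adjusted p = 0.0518). Lum, lumican, a proteoglycan of the family of decorin, was at 165 ± 12.3 and 99.7 ± 26.7 CPM (−0.73 ± 0.20, adjusted p = 0.0696), opposite in sign to Dcn. Dpt, dermatopontin, which binds decorin (0.42, adjusted p = 0.13), and Scara5, a ferritin receptor of stromal cells (0.36, adjusted p = 0.13), had positive values that did not pass. Signs thus differed among the genes named, none of which edgeR called. The members Gsn and Dcn and the list genes Dpt and Scara5 were positive, and Col1a1 and Lum negative. In the list as a whole 4 genes were positive and 11 negative.

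Of 16 other genes of adventitial and interstitial progenitors, the population that Pi16 and Dpp4 mark, 2 rose in knockout gWAT and 0 fell, with 12 positive values and a median of 0.21. Smpd3, a neutral sphingomyelinase, rose from 35.0 ± 2.67 to 61.9 ± 3.40 CPM (0.82 ± 0.10, adjusted p = 0.0157). Efemp1, fibulin 3, rose from 187 ± 46.5 to 323 ± 31.3 CPM (0.80 ± 0.17, adjusted p = 0.0398). Mesothelial markers were also higher in knockout gWAT: the sum of 8 was 113 to 263 CPM in WT and 327 to 552 CPM in knockout libraries, as given with Dpp4. Within these groups Smpd3 varied less, from 32.9 to 38.0 CPM in WT and from 59.3 to 65.8 CPM in knockout gWAT. Efemp1 ran from 145 to 237 CPM in WT and from 296 to 357 CPM in knockout gWAT. Among WT hearts, where that sum ran from 57.7 to 376 CPM, Smpd3 ran from 3.57 to 21.0 and Efemp1 from 23.0 to 77.5 CPM. The part of mesothelial RNA in the rise of Smpd3 and Efemp1 was not tested. Cd44, a hyaluronan receptor that leukocytes share, was negative (−1.30, adjusted p = 0.0612), and Ackr3, a scavenging chemokine receptor, positive (0.51, adjusted p = 0.19).

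Committed preadipocyte genes had a median of −0.08, with 1 of 12 tested genes called. Cxcl14, a chemokine of preadipocytes, was at −1.23 (adjusted p = 0.16), Pdgfrb, the second receptor of platelet-derived growth factors, at −0.50 (adjusted p = 0.25) and Smoc2, a matrix protein, at 0.27 (adjusted p = 0.27). The called gene was Apoe, apolipoprotein E, from 1437 ± 5.80 to 2194 ± 182 CPM (0.61 ± 0.14, adjusted p = 0.04995), and macrophages and adipocytes transcribe it too. Of 10 genes of adipogenesis-regulating stromal cells, the population that F3 marks, 0 were called by edgeR and 4 had an unadjusted p under 0.05. Fmo2, a monooxygenase (0.96, adjusted p = 0.0757), Vit, vitrin (1.01, adjusted p = 0.14), and Gdf10, a secreted factor of the BMP family (0.39, adjusted p = 0.10), were positive and Mgp, matrix Gla protein (−1.03, adjusted p = 0.0773), negative. Among 12 small leucine-rich and microfibril matrix genes, the families of Dcn and Mfap5, Podn, podocan (0.90 ± 0.19, adjusted p = 0.0363), and Ltbp4 (0.54 ± 0.12, adjusted p = 0.0446) rose and Mfap2, a microfibril protein like Mfap5, fell (−1.26 ± 0.28, adjusted p = 0.0439). Bgn, biglycan, the nearest relative of decorin, was at −0.69 and did not pass (adjusted p = 0.0511).

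**Figure D4:**
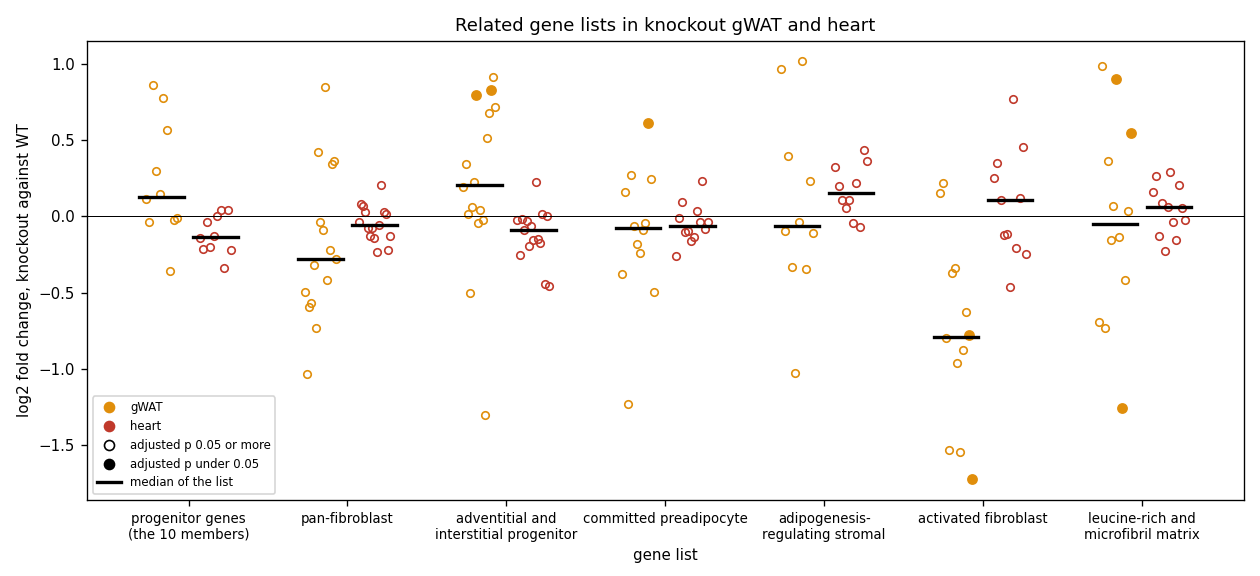
Log2 fold change of knockout against WT (y axis) for each tested gene of the 10 members and of the 6 related lists (x axis), in gWAT and heart. Filled points passed an adjusted p of 0.05 and bars are medians, which in gWAT run from −0.79 for activated fibroblast genes to 0.21 for adventitial and interstitial progenitor genes.

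In heart 0 genes of the 6 lists were called by edgeR, and at an unadjusted p under 0.05 there was 1 each in the general fibroblast, adventitial and adipogenesis-regulating lists and 0 in the others. List medians ran from −0.09 for the adventitial genes to 0.15 for the adipogenesis-regulating genes. Igfbp3, a binding protein of insulin-like growth factors, had the smallest p of the named list genes (0.44 ± 0.10, adjusted p = 0.9997), followed by Cd55, a complement inhibitor of the adventitial list (−0.25 ± 0.08, adjusted p = 0.9997).

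The genes most like a member in their pattern over the 14 libraries were found by the root mean square difference of log2 CPM, each gene centred on its own mean. For Pi16 these were Kcne4, a potassium channel subunit (0.14), Thap2 (0.18) and 2810002D19Rik (0.19). For Dpp4 the nearest were Ephb6 (0.23), Glt8d2 (0.25) and Cdon (0.25), which are farther from it. Gsn was nearest to Mgl2 (0.15), a lectin of macrophages, Ebf1 (0.18), a transcription factor of adipocytes and their progenitors, and Npdc1 (0.20). Mfap5 was nearest to Fstl1 (0.12), a secreted glycoprotein of fibroblasts. The closest pair of members was Pi16 and Cd34 (0.24), and Pi16 was not the member nearest to Dpp4, which was Gsn (0.50).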

How the data were processed

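RNA-seq libraries (Kapa mRNA kit) were made from 8 hearts and 6 gWAT samples. The values used are whole-number counts per gene as deposited by the authors; the submitters' processing notes name Trimmomatic 0.32, HISAT2 2.1.0, HTSeq 0.11.0 and build mm10, with strand handling and annotation release not given in the sources used here. IDs were named from GENCODE M21, and the 53 IDs without a symbol hold 0.0132% of reads.

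Counts were tested with edgeR 4.0.16 (filterByExpr by group, TMM scaling, quasi-likelihood F test, Benjamini-Hochberg over all genes tested, threshold 0.05), each tissue alone for the genotype effect and 1 fit of 14 libraries for the contrasts between tissues. The script was tested on simulated counts. CPM use TMM over 14 libraries. Among the libraries of 1 tissue, this differs from scaling within the tissue by at most 0.0353 (log2), after centring on the tissue mean. That value does not cover the scaling between tissues. The TMM factors were 0.784 to 0.901 in heart and 1.16 to 1.33 in gWAT, and differences between tissues rest on them. FPKM is CPM per kilobase of the exon union. SE is the log2 fold change divided by the root of F. The likeness measure adds 0.5 CPM and takes genes with a mean log2 CPM above 1. No 2 libraries of a group agreed within sampling noise (lowest chi-square per degree of freedom 3.53 over 18 pairs). Counting error depends on the reads of each gene, not on library totals. It weighs more for F3, with 850 reads over the 4 knockout hearts, than for Gsn, with 68591. Its part in the spread of each member was not computed.

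Heart libraries of the same number deviated together (r 0.228 to 0.310 in 4 pairs). So did differently numbered hearts within numbers 1 and 2 or 3 and 4, such as WT heart 1 and knockout heart 2 (r 0.403). WT heart 3 and knockout heart 4 did as well (r 0.297), so the numbers were not shown to pair single hearts. In gWAT, libraries of the same number did not deviate together (−0.214 to 0.0292). Between heart and gWAT libraries of the same number, r was −0.0280 to 0.0794 in WT and −0.00603 to 0.192 in knockout mice. The labels do not say whether these are the same mouse. The 10 members and the lists were chosen with earlier results of these data known. All members are named, and of each list up to 4 genes per tissue with the smallest p and every called gene. Alternatives were RLE scaling, no filter beyond 1 count, DESeq2 1.42.0, limma-voom (limma 3.58.1), the replicate block, 1 fit of 14 libraries, a threshold of 0.1 and leaving out each library. Fits within heart numbers 1 and 2 or 3 and 4, a covariate for that split, and the look at mesothelial markers beside Dpp4 were added after seeing the data. Nothing in the count table was left out.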

Additional observations from a re-analysis of the deposited data

Results flagged for a closer look

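In knockout heart, Gsn stood at 1383 CPM in library 4, apart from 1731 to 1745 CPM in the other 3. The same gene had no genotype difference in heart, with or without that library. Looking at 30 groups of 4 heart libraries (10 members and 5 marker sums in each genotype), this was the 1 value that lay far from the rest of its group, and since chance puts about 1 in 20 such groups past the limit used, 1 of 30 is not unusual.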

How the results depend on the processing

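No gWAT call of a member was lost or made by RLE scaling or limma-voom, but the number of members called in knockout gWAT (0) became 3 without the filter, by DESeq2, at a threshold of 0.1 (Dpp4, Gsn and Dcn each time), 2 in the fit of all 14 libraries (Gsn and Dcn), and 0 to 3 with 1 library left out, 3 being without WT library 1. The number of genes called in knockout gWAT (834) became 1600 without the filter, 1769 by DESeq2, 477 by limma-voom, 1725 in the fit of all 14 libraries, 1800 at 0.1, and 0 to 2908 with 1 library left out (2908 without WT 1, 132 without WT 3, 0 without WT 4 or any knockout library). With the replicate block 0 genes were called there, among 2922 at an unadjusted p under 0.05. Whether gWAT libraries of the same number are pairs is not stated and was not shown either way. The heart count of 1 became 3 without the filter, 2 by DESeq2, 2 with the covariate and 17 within numbers 3 and 4 alone, and the replicate block changed no heart call; WT heart 1 correlated best with knockout heart 2 (r 0.403). For the difference between tissues the count of 184 became 533 without the filter, 669 by DESeq2, 69 by limma-voom, 559 at 0.1 and 3 to 1315 with 1 library left out (3 without gWAT WT 4, 1315 without gWAT WT 1), and members called became 1 without the filter and at 0.1 (Gsn), 2 by DESeq2 (Cd34 and Gsn) and 0 to 2 with 1 library left out. The cause was not tested.

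Signs turned for members without a call, most with values near 0, but also for Pdgfra (0.11 in gWAT, −0.14 in heart), Ly6a in heart (−0.13) and the tissue difference of Pi16 (0.17). In gWAT Col15a1 was at 0.0015 by limma-voom and 0.0047 with the replicate block. In heart Gsn was at 0.00099 with RLE scaling, 0.0011 without the filter, 0.00097 by DESeq2, 0.0018 in the fit of all 14 libraries, 0.0014 with the covariate and 0.034 within numbers 3 and 4. Dpp4 in heart was at 0.013 by limma-voom, 0.018 with the replicate block, 0.023 with the covariate, and 0.30 within numbers 3 and 4; Pdgfra was 0.098 there, and within numbers 1 and 2 Ly6a was 0.023, Dcn −0.072 and F3 −0.034. Dcn between the tissues was at 0.018 without the filter and 0.036 with the replicate block.

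With 1 library left out, the gWAT ranges were −0.066 to 0.30 (Pdgfra), −0.23 to 0.053 (Pi16), −0.16 to 0.10 (F3) and −0.11 to 0.17 (Col15a1). In heart they were −0.22 to 0.24 (Dpp4), −0.051 to 0.076 (Gsn), −0.029 to 0.11 (Dcn) and −0.0094 to 0.096 (F3). For the difference between tissues they were −0.016 to 0.34 (Pi16), −0.15 to 0.076 (Mfap5) and −0.20 to 0.046 (F3), and between the tissues −0.10 to 0.034 (Dcn).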
